A study of Mus musculus with 4 samples.

Results

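The expression of 8 genes of the airway club and secretory cells was examined in 4 lung tumors of KP mice. The genes were the secretoglobins Scgb1a1, Scgb3a1 and Scgb3a2, the BPI fold proteins Bpifa1 and Bpifb1, the lectin Reg3g and the enzymes Cbr2 and Aldh1a1. They were the 8 of 39017 genes in the count table whose symbol equals one of these names, and they were chosen by values of these same tumors, Scgb1a1 having been noted as far lower in 1 of them. Their levels and their spread over the tumors are therefore given as a description, from which nothing is concluded, and p-values are given only for differences between genes within a tumor.

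KP mice carry floxed p53 alleles (p53 Fl/Fl), and lung adenocarcinomas form where Cre recombinase reaches lung cells. The mice were C57BL/6 males that received 1500 viral units of lenti.PGK-Cre into the trachea, and tumors were taken 22 weeks and 5 days later, macrodissected and dissociated before RNA extraction. The genotype label of all the mice reads heterozygous fl/wt, with no gene named. The log2 table carries the mark WT for the same tumors, and in the study's methods a control mouse could be wild type or heterozygous for floxed Slc2a1. All tumors formed 1 group, Control, with 1 library per tumor, numbered here as in the labels, which do not say that each came from its own mouse. The PGK promoter is active in most cell types, so Cre was not restricted to alveolar or airway cells. The RNA came from whole tumor pieces, and tumor cells were not separated from airway, stromal or immune cells.

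Club cells line the bronchioles of the mouse lung between the ciliated cells. They secrete small proteins into the airway lining fluid, hold enzymes that break down inhaled compounds, and act as progenitors of the airway epithelium. Scgb1a1 encodes the club cell secretory protein, the most used marker of these cells, and Scgb3a1 and Scgb3a2 encode small secreted relatives. Bpifa1 encodes SPLUNC1, a secreted protein of the upper airways that acts on bacteria and on the surface film, and Bpifb1 encodes its long relative LPLUNC1. Reg3g encodes a secreted lectin that kills bacteria and is induced in epithelia by infection. Cbr2 encodes a carbonyl reductase abundant in mouse lung, and Aldh1a1 encodes a retinal dehydrogenase that is also made in many cells outside the airway.

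Promoter sequences from the RefSeq table (GRCm38.p6) were found for 6 of the 8 genes, and 3 are shown, those of Bpifa1 and Scgb3a1, which were both highest in tumor 2, and that of Aldh1a1, which varied least. Each is the 250 bases before the first listed start, 5′ to 3′ on the plus strand, which is the strand of all 3 genes. Capitals mark motifs searched on both strands, and a capital run can be the reverse complement of the motif. The windows are chr2:154142630-154142879 for Bpifa1, chr11:49663345-49663594 for Scgb3a1 and chr19:20492333-20492582 for Aldh1a1.
Bpifa1: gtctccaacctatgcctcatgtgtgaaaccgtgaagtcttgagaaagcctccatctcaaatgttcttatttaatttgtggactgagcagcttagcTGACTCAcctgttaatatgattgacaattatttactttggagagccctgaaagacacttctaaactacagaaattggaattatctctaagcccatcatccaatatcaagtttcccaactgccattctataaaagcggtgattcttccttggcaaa
Scgb3a1: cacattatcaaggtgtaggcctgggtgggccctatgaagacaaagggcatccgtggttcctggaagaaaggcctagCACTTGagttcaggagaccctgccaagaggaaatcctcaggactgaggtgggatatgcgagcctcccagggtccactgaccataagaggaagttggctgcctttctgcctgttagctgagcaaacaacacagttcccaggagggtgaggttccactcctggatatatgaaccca
Aldh1a1: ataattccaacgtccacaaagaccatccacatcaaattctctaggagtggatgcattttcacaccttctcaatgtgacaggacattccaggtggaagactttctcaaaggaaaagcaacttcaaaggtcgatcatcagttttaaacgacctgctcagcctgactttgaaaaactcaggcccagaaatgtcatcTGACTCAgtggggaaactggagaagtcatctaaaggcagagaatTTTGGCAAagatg

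The capitals in Bpifa1 are the AP-1 motif TGACTCA, 149 to 155 bases before the start. Aldh1a1 held the same AP-1 motif 51 to 57 bases before its start, and also the C/EBP motif TTGCNNAA on the other strand at 6 to 13 bases. Scgb3a1 held the core motif of NK2 homeodomain factors, CAAGTG, on the other strand 169 to 174 bases before the start. Among 32851 mouse promoters of the same length, the AP-1 motif was found in 4.46%, the C/EBP motif in 9.56% and the NK2 core in 11.6%. The forkhead motif TGTTTAC (3.17% of promoters) was in none of the windows of the 6 genes, and the grainyhead motif AACCGG (5.62%) was in that of Cbr2, 198 to 203 bases before its start. The windows of Bpifb1 and Reg3g held none of the 5 motifs. A second listed start of Aldh1a1, at which the window is chr19:20601718-20601967, held the NK2 core 110 to 115 bases before it. Such matches describe the letters of these windows and not binding.

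Total counts were between 8151613 and 8799007 per tumor. A floor of 3 counts was set, which corresponded to 0.330 to 0.370 CPM. CPM is the count per 1000000 of the library size scaled by TMM, a factor that brings most genes to the same level in all libraries. Of the 8 genes, 6 averaged 1 CPM or more, the minimum set for comparison with other genes, and 14225 genes in all passed it. Reg3g had at most 3 counts in every tumor, as did 57.0% of the 39017 genes in the table. Bpifb1 was above 3 counts only in tumor 4. Of 25 further club and secretory markers, 19 averaged 1 CPM or more, among them Cyp2f2, the cytochrome P450 typical of mouse club cells.

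Scgb1a1 was the most abundant of the 8 genes per length in 3 tumors and came after Cbr2 in tumor 1, where the levels were 20.6 and 28.6 CPM per kb. The gene (ENSMUSG00000024653) lies on the minus strand at chr19:9083636-9087958 (GRCm38) and has 3 exons. Its CPM was 9.79 in tumor 1 (95% Poisson interval 7.86 to 12.1, from 89 counts), 457 in tumor 2, 736 in tumor 3 and 450 in tumor 4 (mean 413 ± 300, SD, n = 4). Tumors 2, 3 and 4 lay close together, whereas tumor 1 stood far below them, with the next lowest tumor 46.0 times higher and the highest 75.1 times higher. Its SD of log2 CPM was 2.90, with rank 28 among the 10269 genes that averaged 10 CPM or more, and without tumor 1 it was 0.40. These are Poisson intervals of each count, so they cover counting error only. The reads carried no molecular identifiers by which copies of a molecule could be set aside. In bulk tumors, fewer cells of a type and less RNA per cell cannot be told apart.

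Scgb3a2 and Scgb3a1 followed another order over the tumors than Scgb1a1. Scgb3a2 (ENSMUSG00000038791) had 5.28, 85.4, 14.6 and 20.8 CPM in tumors 1 to 4 (mean 31.5 ± 36.5, SD, n = 4). It was highest in tumor 2, 4.10 times above the next tumor, and lowest in tumor 1, where the next tumor was 2.76 times higher, and its mean without tumor 2 was 13.6 CPM. Scgb3a1 (ENSMUSG00000064057, chr11:49663610-49665118, plus strand) was low throughout, at 4.07, 14.6, 3.33 and 5.35 CPM from 37, 126, 27 and 45 counts (mean 6.85 ± 5.26, SD, n = 4). It was also highest in tumor 2, 2.73 times above the next, with a mean of 4.28 CPM without that tumor, while the Poisson intervals of tumors 1 and 3 overlapped (2.87 to 5.61 and 2.20 to 4.85 CPM). The SD of log2 CPM was 1.66 for Scgb3a2 and 0.94 for Scgb3a1, and without tumor 2 it was 1.02 and 0.34.

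Among 18 genes of the secretoglobin family, 14 had at most 3 counts in every tumor. Beside the 3 described, only Scgb1c1 averaged 1 CPM or more, and it was named after its values were seen. Its CPM was 1.43, 6.97, 2.84 and 2.50 in tumors 1 to 4. It was thus lowest in tumor 1 and highest in tumor 2, as Scgb3a2 was.

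Bpifa1 was the gene of the group that most set tumor 2 apart. The gene (ENSMUSG00000027483) lies on the plus strand at chr2:154142880-154149219, has 10 merged exons, and had 9.68, 435, 27.5 and 71.5 CPM in tumors 1 to 4 (mean 136 ± 201, SD, n = 4). Tumor 2 was 6.09 times above the next highest, tumor 4, and 45.0 times above tumor 1. Without tumor 2 the mean was 36.5 CPM. The SD of log2 CPM was 2.33, and 1.44 without tumor 2. Per length Bpifa1 stayed below Scgb1a1, at 282 against 961 CPM per kb in tumor 2 and 6.27 against 20.6 in tumor 1.

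Bpifb1 and Reg3g were close to or below the floor of 3 counts. Bpifb1 (ENSMUSG00000027485, chr2:154190818-154220369, plus strand) had 3, 3, 0 and 13 counts, or 0.330, 0.348, 0 and 1.55 CPM. With 3 counts in place of the 0 of tumor 3, tumor 4 was 4.18-fold higher, which is no lower bound. The 95% Poisson intervals were 0.823 to 2.64 CPM in tumor 4 and 0 to 0.455 CPM in tumor 3. Reg3g (ENSMUSG00000030017, chr6:78466269-78468872, minus strand) had 1, 2, 0 and 2 counts. No difference of Reg3g between the tumors was detectable at this depth.

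Of 16 genes of the BPI fold family in the table, 8 had at most 3 counts in every tumor and 5 averaged 1 CPM or more. Lbp, which binds bacterial lipopolysaccharide in plasma, had 36.4, 137, 245 and 104 CPM, and Pltp, a phospholipid carrier, had 8.47, 8.94, 10.7 and 8.33 CPM. Bpifb2 and Bpifb5, named after their values were seen, were lowest in tumor 1 and highest in tumor 2. Bpifb2 had 2, 110, 11 and 11 counts, and Bpifb5 had 0, 20, 7 and 18 counts. Of 7 genes of the Reg family, 6 had at most 3 counts in every tumor. The exception was Reg4, at 6.93 CPM in tumor 1 and at most 0.348 CPM elsewhere.

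The enzymes had fold ranges of CPM below the 4.39-fold range of Scgb3a1, the narrowest among the secreted proteins above the minimum, although the SD of log2 CPM of Cbr2 (0.95) was no smaller than that of Scgb3a1 (0.94). Cbr2 (ENSMUSG00000025150, chr11:120729489-120732114, minus strand) had 38.0, 47.0, 148 and 110 CPM in tumors 1 to 4 (mean 85.9 ± 52.6, SD, n = 4). Tumors 1 and 2 were low and tumors 3 and 4 high, with a 3.91-fold range. The pseudogene Gm11771 shares a stretch of 225 nt at 99.1% identity with Cbr2, so its count is uncertain where reads fall there, and Gm11771 itself had at most 0.617 CPM. Aldh1a1 (ENSMUSG00000053279, chr19:20492715-20643465, plus strand) had 50.8, 43.7, 81.6 and 52.2 CPM (mean 57.1 ± 16.8, SD, n = 4). Tumor 3 was highest and the other 3 were close together, and the SD of log2 CPM was 0.39 with tumor 3 and 0.14 without it. Aldh1a1 overlaps 2 genes on the other strand, of which Gm6684 had 0 counts and C730002L08Rik was not in the table.

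The relatives of the 2 enzymes were described from lists of 5 carbonyl reductases and 9 aldehyde dehydrogenases, Cbr2 and Aldh1a1 included. All 5 carbonyl reductases were lowest in tumor 1, against 30.3% of 14225 genes. Cbr1 had 51.5, 69.8, 69.2 and 53.8 CPM and Dcxr, which reduces diacetyl and xylulose, had 27.3, 29.0, 38.4 and 36.6 CPM. Of the 8 aldehyde dehydrogenases that averaged 1 CPM or more, 3 were lowest in tumor 1, 3 in tumor 2, 1 in tumor 3 and 1 in tumor 4. Aldh1a7, the closest relative of Aldh1a1 with 93.0% identity over 430 nt, had 68.0, 125, 174 and 89.2 CPM, and Aldh2, the mitochondrial acetaldehyde dehydrogenase, had 218, 342, 278 and 283 CPM.

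**Figure D1:**
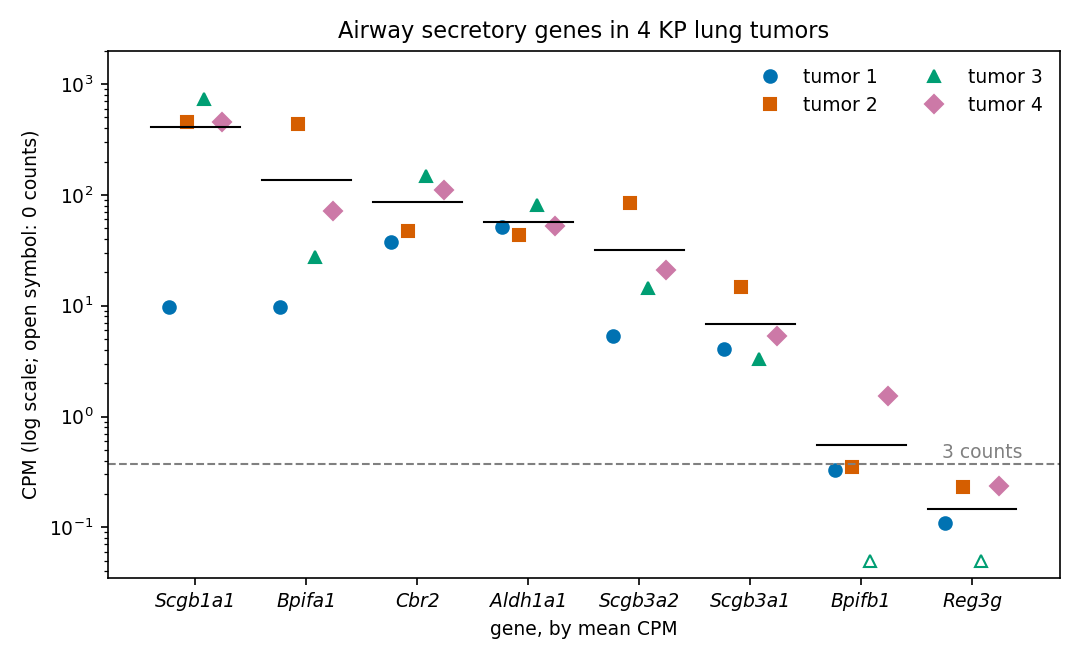
Expression of the 8 genes in CPM (vertical axis, log scale), ordered by mean CPM. Each symbol is 1 tumor, black lines are means over 4 tumors, open symbols are 0 counts, and the dashed line is the highest CPM of 3 counts (0.370). Tumor 1 is far below the others for Scgb1a1, tumor 2 is far above them for Bpifa1 and Scgb3a2, and Bpifb1 and Reg3g lie around the line.

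The summed CPM of the 8 genes was 118, 1084, 1011 and 712 in tumors 1 to 4, a 9.18-fold range. Without Scgb1a1 the sum was 108, 627, 275 and 262 CPM, so tumor 1 remained the lowest and the range was 5.79-fold. Without Scgb1a1 and Bpifa1 it was 98.6, 191, 248 and 190 CPM, a 2.51-fold range. The 6 secreted proteins alone summed to 29.3, 993, 781 and 550 CPM, a 33.9-fold range.

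The make-up of these counts differed between the tumors as well as their total. Scgb1a1 held 8.29% of the counts of the 8 genes in tumor 1 (95% Wilson interval 6.79 to 10.1%), 42.2% in tumor 2 (41.2 to 43.2%), 72.8% in tumor 3 (71.8 to 73.7%) and 63.2% in tumor 4 (62.0 to 64.4%). Bpifa1 held 40.2% in tumor 2 (39.2 to 41.2%) and 2.72% in tumor 3 (2.39 to 3.10%). In tumor 1 the enzymes prevailed by counts, with 43.1% for Aldh1a1 (40.1 to 46.0%) and 32.2% for Cbr2 (29.4 to 35.0%). These shares are not corrected for gene length. Per kb the levels in tumor 1 were 28.6 CPM for Cbr2, 20.6 for Scgb1a1 and 10.3 for Aldh1a1. Scgb1a1 held the largest share in both tumor 2 and tumor 3, and Bpifa1 held a share almost as large in tumor 2.

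**Figure D2:**
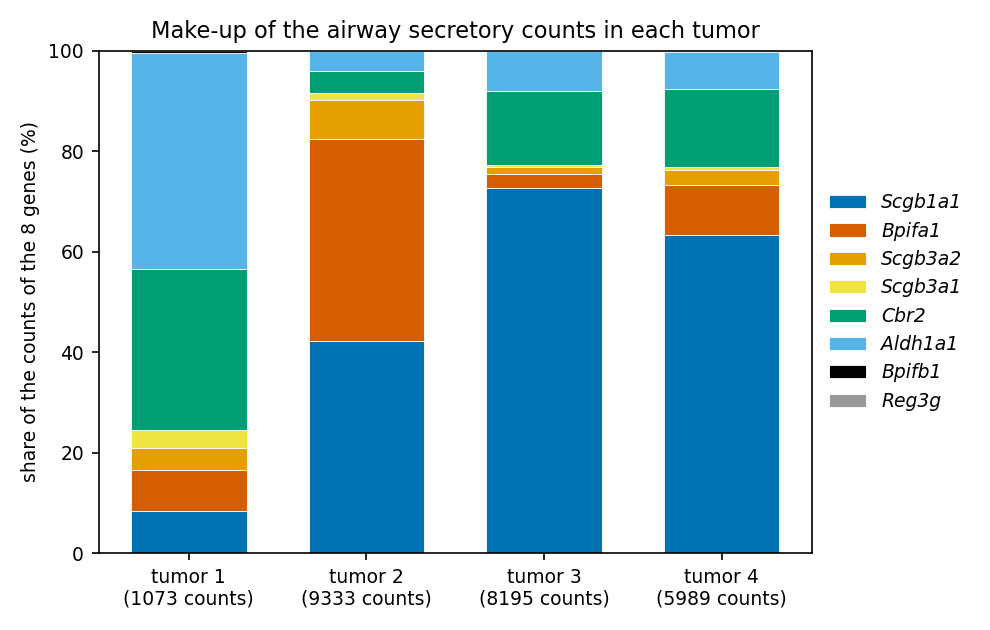
Share of each gene in the counts of the 8 genes (vertical axis, percent) in each tumor, with the number of these counts under each bar. Aldh1a1 and Cbr2 fill most of tumor 1, Scgb1a1 and Bpifa1 most of tumor 2, and Scgb1a1 most of tumors 3 and 4.

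Levels of different genes were compared per kilobase of merged exons, within each tumor. By mean CPM per kb the order was Scgb1a1 (868), Bpifa1 (88.1), Cbr2 (64.8), Scgb3a2 (35.8), Aldh1a1 (11.6), Scgb3a1 (11.5), Bpifb1 (0.154) and Reg3g (0.0686). Of the 28 pairs of genes, 19 had the same order in 4 of 4 tumors. Of these, 12 set another gene above Bpifb1 or Reg3g, which lay at or near the floor, and among the 15 pairs of the 6 other genes 7 kept their order. Scgb1a1 exceeded Bpifa1 by 1.71, 1.77, 6.44 and 4.35 on the log2 scale of CPM per kb (mean 3.57 ± 2.27, SD, n = 4). An exact permutation test that flips the sign of these differences gave a two-sided p = 0.125, or 0.184 after Benjamini-Hochberg adjustment over the 28 pairs. Cbr2 exceeded Aldh1a1 in 4 of 4 tumors (2.30 ± 0.69). Scgb3a1 was above Bpifb1 in 4 of 4, a difference without a fixed size because Bpifb1 was at or below 3 counts in 3 tumors. With 4 tumors the smallest p of this permutation test is 0.125, so no pair could pass 0.05 with it, adjusted or not.

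The other neighbors in this order did not keep it in all 4 tumors. Whether they differ cannot be decided by the permutation test, whose smallest p is 0.125. Bpifa1 was above Cbr2 only in tumor 2, with log2 differences of -2.18, 2.99, -2.65 and -0.84, so that its mean log2 difference of -0.67 ± 2.56 had the opposite sign to the order of mean levels (exact permutation p = 0.625, adjusted 0.648). Cbr2 exceeded Scgb3a2 in 3 of 4 tumors (1.34 ± 1.90, exact permutation p = 0.25, adjusted 0.304), and Scgb3a2 exceeded Aldh1a1 in 3 of 4 (0.96 ± 1.84, exact permutation p = 0.375, adjusted 0.42). The last of these differences was -0.037 when the longest transcript gave the length, so the order of Scgb3a2 and Aldh1a1 rests on the length used. Aldh1a1 minus Scgb3a1 was 0.22 ± 1.26 with the merged exons and 1.29 with the longest transcript, so it rests on the length as well. Bpifb1 and Reg3g could not be ordered at this depth.

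The range of these genes over the tumors was set beside that of all 14225 genes above the minimum. A highest tumor at least 2-fold above the lowest was found for 28.1% of all genes, and for 5 of the 6 airway genes. The shares at 4-fold and 10-fold were 7.82% and 2.54% of all genes, and 4 and 3 of the 6 genes reached them, the last being Scgb1a1, Scgb3a2 and Bpifa1. The median fold range was 8.33 for the 6 genes and 1.58 for all genes. The choice of the genes used these values, so nothing is read from the difference. Set against counting noise alone, which leaves out the variation between separate tumors, the counts of 76.7% of genes varied more (chi-square test, 5% false discovery rate). The 6 genes were among them, and nothing is read from this either.

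**Figure D3:**
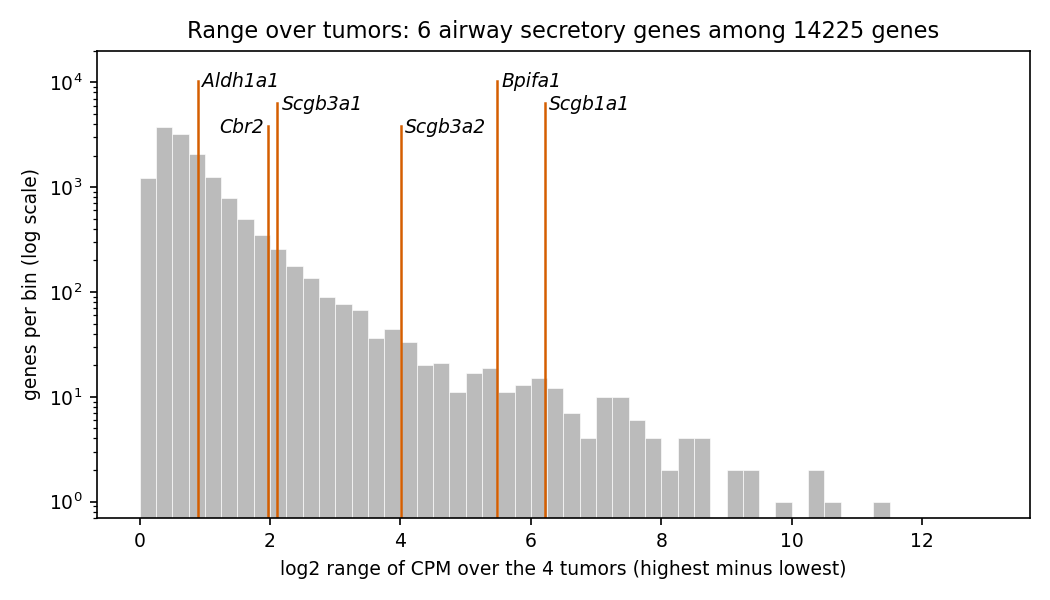
Number of genes (vertical axis, log scale) by the range of log2 CPM over 4 tumors (horizontal axis, highest minus lowest) for the 14225 genes that averaged 1 CPM or more, with the 6 airway secretory genes as lines. Aldh1a1 lies within the bulk of all genes, Cbr2 and Scgb3a1 lie to its right, and Scgb3a2, Bpifa1 and Scgb1a1 lie in the thin tail.

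The tumor with the lowest or the highest level differed by gene. Tumor 1 was lowest for Scgb1a1, Scgb3a2, Bpifa1 and Cbr2, 4 of 6 genes, against 30.3% of all genes, and for 3 of these the next tumor was at least 2-fold higher (2.23% of all genes). Tumor 2 was highest by at least 2-fold for Scgb3a1, Scgb3a2 and Bpifa1, against 0.865% of all genes. Tumor 3 was highest for Scgb1a1, Cbr2 and Aldh1a1 (30.1% of all genes), and for none of them by 2-fold (2.09%). None of the 6 was highest in tumor 1 (31.4%) or tumor 4 (18.0%) or lowest in tumor 4 (17.7%), Aldh1a1 was lowest in tumor 2 (19.4%) and Scgb3a1 in tumor 3 (32.6%). Between tumors 1 and 2, 4 of the 6 genes were at least 2-fold lower in tumor 1 (5.48%), all but Cbr2 and Aldh1a1. Scgb1a1 was the only one of the 6 for which 1 tumor stood apart by Dixon's ratio, which 5.86% of all genes passed. It had been chosen for that same low value, so this is no finding.

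The general epithelial genes Epcam, Cdh1, Krt8 and Krt18 were used as a scale for the epithelial RNA of each tumor. Cdh1, the epithelial cadherin, was nearly level at 842, 887, 846 and 876 CPM. The keratin Krt8 was higher in tumor 1, at 1261 CPM against 589 to 676 in the others, and Epcam was lowest in tumor 3, at 218 CPM against 371 to 600. Relative to the mean log2 CPM of these 4 genes, Scgb1a1 was at -6.59, -0.46, 0.41 and -0.48 in tumors 1 to 4, a 128-fold range. Bpifa1 was at -6.61, -0.53, -4.32 and -3.13, a 67.3-fold range, and Scgb3a2 and Scgb3a1 had ranges of 24.1-fold and 5.36-fold. Cbr2 was at -4.64, -3.74, -1.90 and -2.51, and Aldh1a1 at -4.22, -3.85, -2.76 and -3.59, 6.71-fold and 2.75-fold. On this scale all 6 genes were lowest in tumor 1, including Aldh1a1 and Scgb3a1, which in CPM were lowest in tumors 2 and 3. The scale itself was highest in tumor 1, at a mean log2 CPM of 9.89 against 9.11 to 9.30, which lowers every relative value there. With Epcam and Cdh1 alone as the scale, 5 of the 6 were lowest in tumor 1 and Aldh1a1 was lowest in tumor 2.

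**Figure D4:**
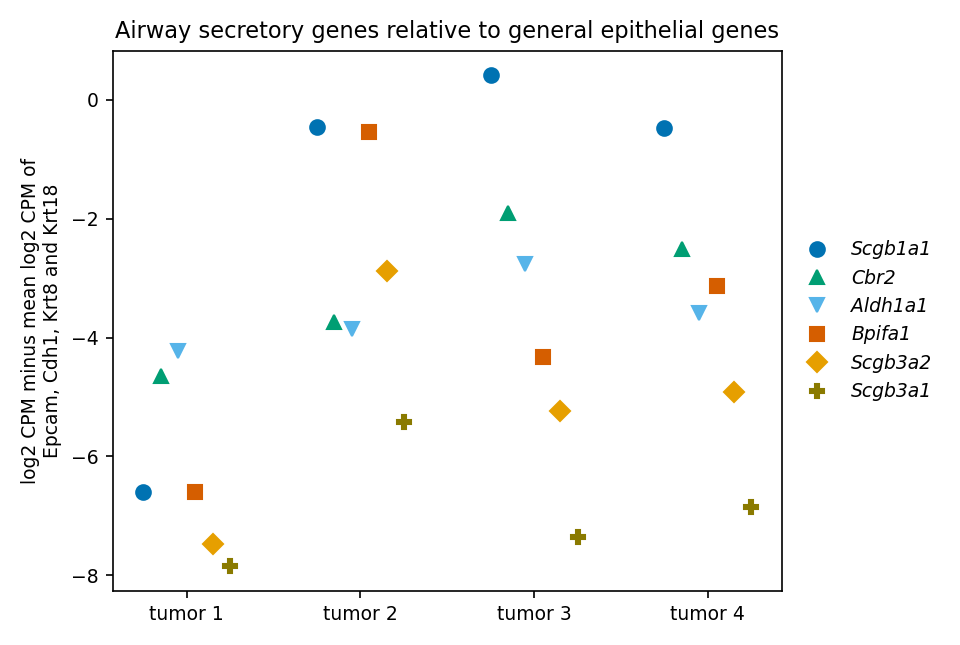
Log2 CPM of 6 airway secretory genes minus the mean log2 CPM of Epcam, Cdh1, Krt8 and Krt18 (vertical axis) in each tumor. Each symbol is 1 gene in 1 tumor. Each gene has its lowest value in tumor 1, and Bpifa1 lies beside Scgb1a1 in tumors 1 and 2 and far below it, at -4.32, in tumor 3.

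Other club and secretory markers also included genes highest in tumor 2 and genes highest in tumor 3. Of the 19 that averaged 1 CPM or more, 11 were lowest in tumor 1 (30.3% of all genes), 6 were highest in tumor 2 (20.4%), 9 in tumor 3 (30.1%), 3 in tumor 1 and 1 in tumor 4. A range of at least 2-fold was found for 15 of 19, against 28.1% of all genes, and without tumor 1 for 9. The 2 gel-forming airway mucins were highest in tumor 2, with 2.20, 197, 36.0 and 80.8 CPM for Muc5b and 1.21, 12.8, 4.32 and 5.23 CPM for Muc5ac. Agr2, a disulfide isomerase needed to make mucin, had 0.440, 30.3, 0.494 and 1.55 CPM. It passed the minimum only through tumor 2 and is counted among the 6 highest there. Spdef, a factor of mucous cells below 1 CPM on average, was named after its values were seen and had 2, 17, 1 and 3 counts.

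Cyp2f2, Hp, Gabrp and Pigr were among the 9 highest in tumor 3. Cyp2f2 had 21.3, 51.1, 127 and 50.0 CPM, and Hp, which encodes haptoglobin, had 175, 209, 560 and 233 CPM. Gabrp, a subunit of the GABA receptor made in secretory cells, had 0.110, 1.86, 7.28 and 4.52 CPM, and Pigr, which carries antibodies across the epithelium, had 3.19, 12.1, 16.5 and 13.1 CPM. In tumor 1 Gabrp had 1 count, below the floor, and it is counted among the markers lowest there. Other enzymes behaved differently: Ces1d, a carboxylesterase, was at 96.5 CPM in tumor 1 and 259 to 286 in the others, Fmo2, a monooxygenase of the lung, had 103, 304, 70.5 and 297 CPM, and Gsto1, a glutathione transferase, had 297, 130, 396 and 182 CPM. The summed CPM of the 25 markers was 967, 1602, 1912 and 1473 in tumors 1 to 4, a 1.98-fold range.

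**Figure D5:**
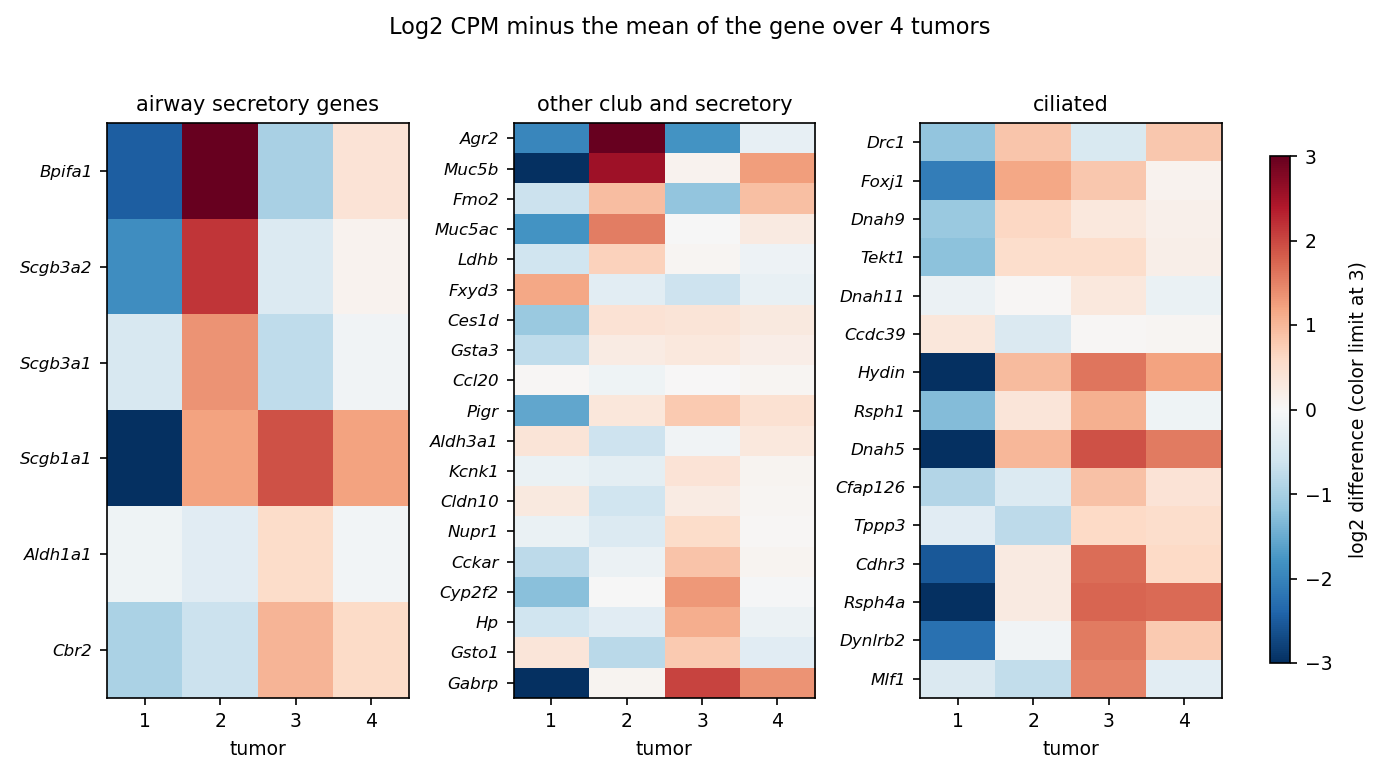
Log2 CPM of each gene minus its mean over 4 tumors (color, limited at 3 in either direction) for the 6 airway secretory genes, 19 other club and secretory markers and 15 ciliated markers that averaged 1 CPM or more. Columns are tumors, and in each panel genes are sorted from higher in tumor 2 to higher in tumor 3. Bpifa1, Scgb3a2, Agr2 and Muc5b are highest in tumor 2, Scgb1a1, Cbr2, Cyp2f2 and Gabrp in tumor 3, and 11 of the ciliated markers are lowest in tumor 1. Several of these 11, and Gabrp, have at most 3 counts in tumor 1, and Agr2 averaged 1 CPM or more only through tumor 2.

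Markers of other cell types also moved with the tumors, and their part in the levels of the 8 genes was not tested. Of 15 ciliated cell markers that averaged 1 CPM or more, 11 were lowest in tumor 1 (30.3% of all genes) and 10 highest in tumor 3 (30.1%). Their summed CPM was 26.2, 41.7, 73.5 and 58.3 over all 20 listed genes. Foxj1, the master regulator of motile cilia, had 0.220, 2.56, 1.97 and 1.19 CPM, and the dynein gene Dnah5 had 0, 2.32, 4.44 and 3.45 CPM. In tumor 1 Dnah5, Hydin and Rsph4a had 0 counts, Foxj1 and Cdhr3 had 2 and Dynlrb2 had 3, none above the floor. These genes passed the minimum only through the other tumors, and the 11 lowest in tumor 1 include them. Tppp3, the most abundant of the list, was lowest in tumor 2, with 12.1, 8.83, 23.3 and 21.9 CPM, as was Mlf1, with 0.880, 0.697, 3.46 and 0.951 CPM. The 12 alveolar type 2 markers were far more abundant, with summed CPM of 36494, 64592, 65702 and 68749, and 9 of them were lowest in tumor 1 (30.3%). The 6 leukocyte markers were all highest in tumor 3 (30.1%), with summed CPM of 146, 175, 348 and 203. Of the 6 basal cell markers, Krt14 had 21.0 CPM in tumor 1 and at most 0.833 CPM elsewhere, and Krt5 had at most 0.440 CPM in any tumor. Of the 9 alveolar type 1 markers, 8 were lowest in tumor 2 (19.4%), and the summed CPM of the 8 stromal and endothelial markers was between 458 and 704.

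The genes listed as airway and lung transcription factors were mostly lowest in tumor 3. Of the 16 of 18 that averaged 1 CPM or more, 11 were lowest in tumor 3 (32.6% of all genes) and 4 in tumor 1. Nkx2-1, the lung identity factor, had 290, 306, 291 and 396 CPM, and Cebpa, a C/EBP factor of club and alveolar cells, had 326, 348, 207 and 341 CPM. Ehf, an epithelial ETS factor, had 182, 324, 293 and 238 CPM. The factors with a range of at least 4-fold were Foxa3, at 20.8, 10.7, 1.23 and 12.3 CPM, Hnf4a, at 152, 130, 22.3 and 123 CPM, and Sox9, at 29.9, 51.9, 8.89 and 34.7 CPM, all lowest in tumor 3.

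The genes whose profile over the 4 tumors was most like that of each gene were found by the root mean square difference of centered log2 CPM among 10269 genes. For Bpifa1 these were the calcium channel gene Ryr3 (distance 0.27), with 1.32, 78.4, 6.42 and 11.8 CPM, and Scgb3a2 (0.62). For Scgb3a2 they were the mucin Muc20 (0.48), with 5.39, 82.6, 18.6 and 46.4 CPM, and the factor Glis3 (0.51). For Scgb3a1 they were 0610007N19Rik (0.09) and BC048546 (0.10), for Cbr2 Rtkn2 (0.13), an alveolar type 1 marker, and Rnf150 (0.15), and for Aldh1a1 Nrros (0.03) and 1700025G04Rik (0.04). The distances were smallest for Aldh1a1, which also had the narrowest range.

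Among the genes that averaged 10 CPM or more, none lay as near to Scgb1a1 as the nearest genes lay to the others. These distances use the tumor 1 value for which Scgb1a1 was chosen, so nothing is read from them. The 5 nearest were Gm8213 (0.63), Gm14217 (0.84), Gm14044 (0.90), Muc5b (1.14) and Rpl15-ps3 (1.23). Of these, 4 are processed pseudogenes, whose reads can be shared with their parent genes, so their counts are uncertain. From the other 5 airway genes above the minimum, Scgb1a1 was at distances of 1.83 (Scgb3a2) to 2.42 (Scgb3a1). Scgb3a2 and Bpifa1 (0.62) and Cbr2 and Aldh1a1 (0.60) were the closest pairs. Which 5 genes were nearest to Scgb1a1 changed when any tumor was left out, and without tumor 1 none of them was kept. None was kept either when all genes that averaged 1 CPM or more were searched.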

How the data were processed

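RNA from 4 lung tumors of KP mice, 1 library each, was sequenced with a TruSeq stranded mRNA kit from 500 ng of total RNA. According to the study's methods, single-end reads were trimmed with Cutadapt and aligned to mm10 with HISAT2. The submitters' processing notes list bcl2fastq 2.17, cutadapt 1.4.2 and featureCounts 1.4.4, while the study's methods give another version of Cutadapt. The strand setting and annotation release were not given in the sources used here. The authors deposited raw counts per Ensembl gene, with no normalization, in single tables and 1 combined table, and 156068 of 156068 values were equal between them. A further table that the authors deposited holds log2 normalized values, made with edgeR TMM and voom, which served as an alternative here.

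All values were recomputed from the counts. Library sizes were scaled by TMM (edgeR 4.0.16, R 4.3.3), log2 CPM used 0.5 added to each count and 1 to each library size, and the 14225 genes that averaged 1 CPM or more were tested. The common biological coefficient of variation over tumors was 30.8%. There was 1 group, so no groups were compared. Spread beyond counting noise was a chi-square test against Poisson expectations (3 degrees of freedom). It was checked only on simulated Poisson counts, without the biological variation between tumors. Pairs of genes were compared by exact sign-flip permutation over tumors, so p-values measure only the spread between these samples. Tumors that share a mouse would not be independent, and the labels do not say whether any do. Positions and lengths are from GENCODE M21 on GRCm38, which held 37693 of 39017 gene identifiers (96.6%), and promoters from RefSeq. Near-identical copies were sought with BLAST 2.17.0 (97% identity over 80 nt). Of 191 entries in the lists, 190 were matched. For 1 of the 8 genes no coordinates are reported here, and 1 further allele of the mice is not reported here.

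The 8 genes and all lists were chosen with earlier results of these data known. Outside the 8 genes, those named were the 3 highest per kb in each list, in the lists of secretory, ciliated and transcription factor genes also those with a 4-fold range, the 4 epithelial genes, overlapping or near-identical genes, the 5 genes nearest to Scgb1a1 and the 2 nearest to each other gene. Alternatives were DESeq2 1.42.0 size factors, library size only, the deposited log2 table, other filters, added counts, gene lengths and reference genes, and leaving out each tumor.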

Additional observations from a re-analysis of the deposited data

Results flagged for a closer look

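Of 82 values examined over the 4 tumors, 8 had a highest or lowest tumor far from the others by Dixon's ratio of the gap to the range, where chance gives about 1 in 20. Several of these values were named for a wide range or for likeness to Scgb1a1, so that rate is no yardstick for them. For Scgb1a1 this was tumor 1, at 9.79 CPM against 450 to 736 in the others, and the same held relative to the epithelial genes, at -6.59 on the log2 scale against -0.48 to 0.41. Both rest on the tumor 1 count for which Scgb1a1 was chosen, so neither is a finding. Tumor 1 was also far below the others for Ces1d, at 96.5 CPM, and for the pseudogene Gm8213, at 0.440 CPM. The same held for the ciliary genes Dnah5 and Hydin, both at 0 CPM, where the floor of 3 counts is 0.330 CPM. With 3 counts in place of 0 the ratios of Dnah5 and Hydin were 0.741 and 0.746, no longer past the limit. Hydin, a component of the ciliary central apparatus, had 1.39, 2.22 and 1.67 CPM in tumors 2 to 4. Tumor 3 was far below the others for the transcription factors Cebpa, at 207 CPM, and Hnf4a, at 22.3 CPM.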

How the results depend on the processing

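Of 327 values recomputed under the alternatives, 309 were counted as unchanged. Levels had to move by less than 1 SD over the tumors, and counts of genes or pairs and SDs of log2 CPM by at most 1.5 times. The bound of 1 SD is wide, since the mean of Bpifa1 was 36.5 CPM without tumor 2, against 136. Differences between genes had only to keep their direction, and Aldh1a1 minus Scgb3a1 went from 0.22 ± 1.26 to 3.26 without length correction. Scaling by DESeq2, by library size or by the deposited log2 table moved no value past its bound, but differences between genes within a tumor cannot change with the scale. The order of neighbors reversed for Aldh1a1 minus Scgb3a1 without tumor 3 (-0.22; up to 0.78 without another tumor), for Scgb3a2 minus Aldh1a1 with the longest transcript (-0.037) or no length correction (-1.52), and for Bpifb1 minus Reg3g without tumor 4 (-0.21; up to 0.61 without another tumor) or with 2 added to each count (-0.033), all mean log2 differences of CPM per kb unless uncorrected. Without a filter on low counts, 3445 genes had a tumor apart by Dixon's ratio, against 834. Leaving out each tumor gave 9 (without tumor 1) to 15 other secretory markers with a 2-fold range, against 15. Among genes that averaged 10 CPM or more, 1 ciliated marker was left with a 2-fold range, against 13, since fewer genes were tested. Of the 5 genes nearest to Scgb1a1, 0 (without tumor 1) to 3 were shared when a tumor was left out, and 0 when all genes averaging 1 CPM or more were searched. The cause of the changes was not tested where none is given. No groups could be compared, paired or not, because all tumors form 1 group, and only genes were paired within tumors. With 4 tumors no comparison of genes could pass 0.05 by the permutation test, and levels below 3 counts could not be ordered.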

Other observations

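Genes of mucosal defence outside the 8 were examined in a list of 19 secreted proteins, receptors and inducers. Of the 18 that averaged 1 CPM or more, 12 were lowest in tumor 1, against 30.3% of all genes, and 11 were highest in tumor 3 (30.1%). Lcn2, which binds bacterial siderophores, had 363, 1014, 1129 and 618 CPM in tumors 1 to 4. Lyz2, a lysozyme of macrophages and alveolar type 2 cells, had 1774, 4084, 6315 and 6696 CPM. Wfdc2, a secreted epithelial protein with a whey acidic protein domain, had 465, 367, 659 and 493 CPM and varied least of these. Il22ra1 and Stat3, the receptor chain and the factor through which interleukin 22 induces Reg3g in epithelia, were named after their values were seen, and Il22ra1 had 4.07, 3.48, 1.11 and 5.83 CPM and Stat3 134, 177, 162 and 143 CPM. Reg3g was at most at 0.238 CPM.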
